A study of Drosophila melanogaster with 6 samples.

Results

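The genes described here encode the oxidative phosphorylation machinery of *Drosophila melanogaster*, and they were chosen by gene symbol from the table of read counts. The rule took symbols that begin with ND, UQCR, COX4 to COX8 or ATPsyn, the exact symbols *SdhA* to *SdhD*, the mitochondrially encoded subunits, and *Cyt-c1*, *RFeSP*, *levy* and *cype*. It found 95 of the 17433 genes listed, of which 82 are nuclear and 13 are encoded by the mitochondrial genome. Of the nuclear genes, 66 carry the symbol of a subunit and 16 carry the symbol of a paralog of one, marked by an L. A few subunits have other symbols and were outside the rule, among them *blw*, which encodes the alpha subunit of ATP synthase.

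RNA was sequenced from nuclei of eye imaginal discs late in the third larval instar, in 3 GMR>Rh-1G69D libraries and 3 control libraries labelled WT. Both genotypes carried *GMR-GAL4* and uas-EGFP::Msp300-KASH, which tags the nuclear envelope, and tagged nuclei were pulled down with an antibody to EGFP. The GMR>Rh-1G69D discs also expressed a misfolded Rhodopsin-1, which imposes stress on the endoplasmic reticulum, and the comparison asks which transcripts differ under that stress. *GMR-GAL4* drives expression in the cells behind the morphogenetic furrow, so the tag marks those cells and not the whole disc. Each library came from a separate pool of discs from many larvae, and p-values measure the spread between such pools.

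Oxidative phosphorylation passes electrons from NADH through complex I, and from succinate through complex II, to ubiquinone, then through complex III and cytochrome c to complex IV, which reduces oxygen. Complexes I, III and IV pump protons across the inner mitochondrial membrane, and complex V, the ATP synthase, uses the return flow of protons to make ATP. All subunits of complex II are nuclear, while the other complexes join nuclear subunits to a small core made inside the mitochondrion. In the fly eye disc, mutants of the complex IV gene *COX5A* are known to lower ATP and to stop the cell cycle.

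Library totals lay between 21773452 and 30884519 counts on genes, and ribosomal RNA took 15.3, 14.0 and 18.6% of them in GMR>Rh-1G69D libraries, against 12.1, 7.70 and 20.5% in control libraries. Control replicate 3 thus had the highest share of all, and the other controls the lowest. *ninaE*, the Rhodopsin-1 gene that the transgene copies, had 146, 175 and 220 CPM (counts scaled to a common library total) in GMR>Rh-1G69D libraries, against 3.21, 36.9 and 2.22 CPM in control libraries. Control replicate 2 therefore held more *ninaE* than the other controls, though less than any GMR>Rh-1G69D library. Markers were called higher or lower at an adjusted p under 0.05 in edgeR, against 1.24% higher and 3.72% lower of all genes tested. Markers of the eye disc and photoreceptors were present in every library, and 5 of 8 (*so*, *eya*, *gl*, *chp* and *lz*) were lower in GMR>Rh-1G69D. The summed levels of the 8 were 1634 to 1833 CPM in GMR>Rh-1G69D libraries and 2788 to 4468 CPM in control libraries. Of 7 muscle markers, 4 were higher (*Mhc*, *Mlc2*, *wupA* and *Act57B*) and 1 was lower (*sls*), and their sum was 900 to 1711 CPM in GMR>Rh-1G69D libraries and 1025 to 1713 CPM in control libraries. Of 7 hemocyte markers, *Hml* was higher, with sums of 337 to 368 CPM in GMR>Rh-1G69D libraries and 197 to 238 CPM in control libraries. Of 4 glia markers none passed, with 1 higher and 1 lower at an unadjusted p under 0.05. Their sum was 262 to 349 CPM in GMR>Rh-1G69D libraries and 324 to 537 CPM in control libraries. None of 5 fat body markers passed the test, but their sum reached 680 CPM in control replicate 3, against 8.98 to 56.7 CPM in the other 5 libraries. In bulk libraries, fewer cells of a type and less RNA per cell cannot be told apart, and the part of these markers in the results below was not tested.

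Nuclear subunit genes were at higher estimated levels in GMR>Rh-1G69D as a group, and 4 of them passed the test. These were *COX8* of complex IV, *ATPsynE* and *ATPsynB* of complex V and *ND-AGGG* of complex I, each at 1.94 to 2.41 times the control level. No mitochondrially encoded subunit passed the test, and no gene of the set was lower past the threshold in edgeR (1 at an unadjusted p under 0.05, and 1 in DESeq2). A gene passed when its adjusted p was under 0.05 in edgeR's quasi-likelihood test with Benjamini-Hochberg adjustment over the 11818 genes with enough counts. Of all these genes, 146 were higher (1.24%) and 440 lower (3.72%), and the median log2 fold change was 0.044. Of the 95 genes, 84 could be tested, namely 64 of 66 nuclear subunits, 7 of 16 paralogs and 13 of 13 mitochondrial genes.

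*COX8* encodes a small subunit of cytochrome c oxidase, the enzyme that reduces oxygen. It lies on chromosome 3L at 21538859 to 21539447, minus strand (dm6 coordinates), and no other annotated exon overlaps it. It had 48.9, 60.4 and 40.0 CPM in GMR>Rh-1G69D libraries, against 16.5, 20.3 and 25.0 CPM in control libraries. Every GMR>Rh-1G69D library was above every control library. The log2 fold change was 1.27 ± 0.25 (SE, n = 3 each), with a 95% confidence interval of 0.72 to 1.82 and an adjusted p of 0.0136 in edgeR. Per transcript length, *COX8* averaged 100.3 ± 22.4 FPKM in GMR>Rh-1G69D and 39.2 ± 9.34 FPKM in control libraries (SD, n = 3 each).

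*ATPsynE* and *ATPsynB* encode subunits e and b of the membrane-bound part of ATP synthase, b being part of the stalk that holds the catalytic head in place. *ATPsynE*, on 3R at 14326947 to 14327735, had 137, 186 and 126 CPM in GMR>Rh-1G69D libraries, against 51.8, 54.5 and 95.1 CPM in control libraries. *ATPsynB*, on 3L at 9729999 to 9731224, had 71.0, 124 and 100.2 CPM in GMR>Rh-1G69D libraries, against 34.7, 33.7 and 65.2 CPM in control libraries. For both genes replicate 3 was the highest control library, and the genotypes still did not overlap. The log2 fold change was 1.15 ± 0.26 for *ATPsynE* (adjusted p = 0.0227) and 1.14 ± 0.29 for *ATPsynB* (adjusted p = 0.0415, edgeR, SE, n = 3 each). *ND-AGGG* encodes an accessory subunit of complex I known from mammals, and lies on 3L at 24976254 to 24977118. It had 60.2, 40.8 and 40.9 CPM in GMR>Rh-1G69D libraries, against 27.3, 24.1 and 21.9 CPM in control libraries. Here control replicate 3 was the lowest library of all, and the log2 fold change was 0.95 ± 0.24 (SE, n = 3 each, adjusted p = 0.0417 in edgeR). With a correction for gene length, *ND-AGGG* no longer passed (log2 fold change 0.74, adjusted p = 0.119), whereas *COX8*, *ATPsynE* and *ATPsynB* did.

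**Figure D1:**
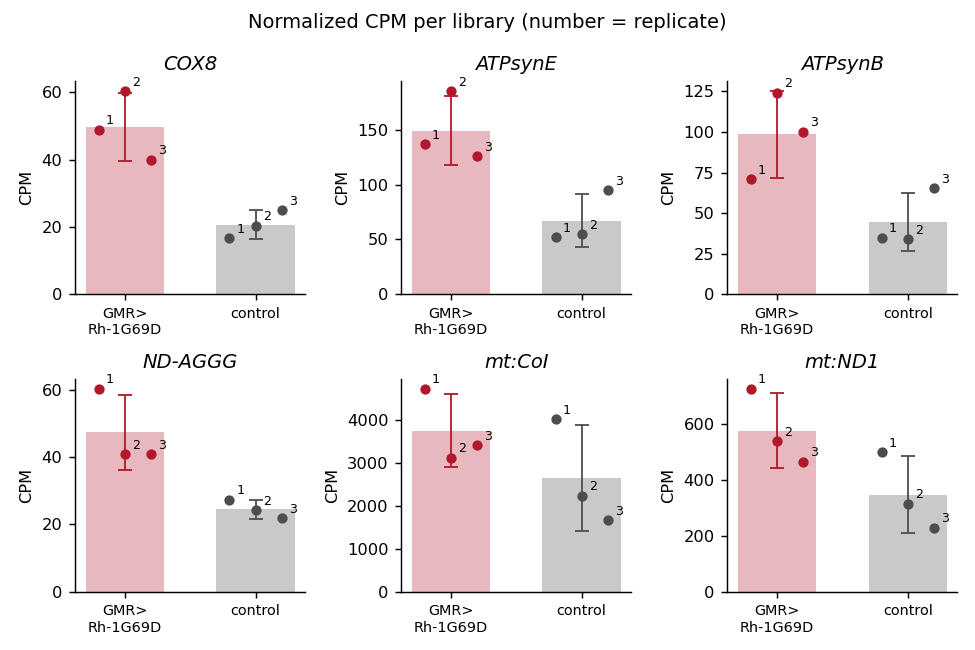
CPM (vertical axes, starting at 0) of *COX8*, *ATPsynE*, *ATPsynB*, *ND-AGGG*, *mt:CoI* and *mt:ND1* in GMR>Rh-1G69D (left, red) and control libraries (right, grey). Points are libraries numbered by replicate, bars are means and error bars are SD (n = 3 each). The genotypes do not overlap for the 4 nuclear genes and overlap for both mitochondrial genes, where control replicate 1 is high.

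The 4 calls depended on single libraries. Without GMR>Rh-1G69D replicate 1 or 2, or without control replicate 2, no gene of the set passed in edgeR, and without GMR>Rh-1G69D replicate 3, 2 did. Calls over all genes in either direction, 586 with all libraries, were 181 to 348 in these fits. Without control replicate 1 only 1 gene of the set passed, *mt:CoII*, with 209 calls over all genes. Without control replicate 3, 54 nuclear subunits and no other gene of the set passed, against 1305 of 12206 genes higher (10.7%) in that fit.

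All 64 nuclear subunits tested had a log2 fold change above 0, with a median of 0.86 and a range of 0.25 for *ND-B14.5A* to 1.27 for *COX8*. At an unadjusted p under 0.05, 48 of 64 were higher, against 11.0% of all genes tested. For 36 of 64 every GMR>Rh-1G69D library was above every control library, against 13.6% of all genes tested. The summed level of the nuclear subunits was 5510, 6251 and 5592 CPM in GMR>Rh-1G69D libraries, against 2654, 3091 and 4944 CPM in control libraries. The sums did not overlap, but control replicate 3 lay closer to the GMR>Rh-1G69D libraries than to the other controls. The share of ribosomal RNA also set control replicates 1 and 2 below the other 4 libraries. With library sizes without ribosomal and mitochondrial genes, 4 genes of the set passed in edgeR and the nuclear subunit median was 0.86. Whether the share of ribosomal RNA had a part in the result in other ways was not tested.

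Control replicate 3 was the highest control for 59 of 64 nuclear subunits, and it was above at least 1 GMR>Rh-1G69D library for 27 of them. For 62 of 64, every GMR>Rh-1G69D library was above control replicates 1 and 2, against 27.9% of all genes tested. Without control replicate 3 the median log2 fold change of the nuclear subunits was 1.16, while it was 0.64 without control replicate 1, 0.71 without control replicate 2 and 0.56 without both libraries numbered 2. GMR>Rh-1G69D replicate 2 was the highest library of its genotype for 44 of 64. Nuclear subunit genes are short, with a median counted length of 879.5 bases against 1860.5 bases over all genes tested. The median log2 fold change was 0.24 over genes under 1500 bases, while longer genes had a median of -0.024, and with the correction for gene length the median of the nuclear subunits was 0.63.

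**Figure D2:**
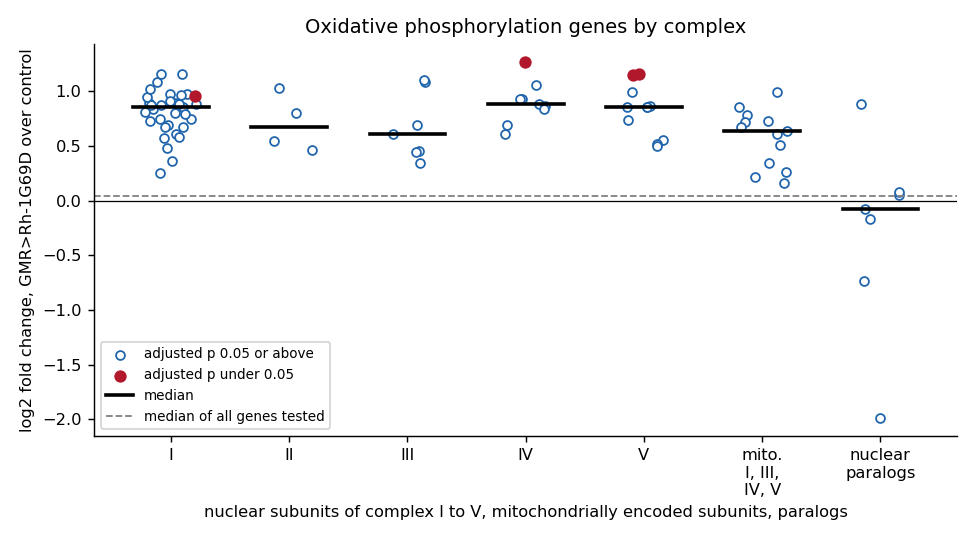
Log2 fold change of GMR>Rh-1G69D over control (vertical axis) for each gene tested, by complex for nuclear subunits, then for mitochondrially encoded subunits and nuclear paralogs. Filled points passed an adjusted p of 0.05 in edgeR, thick lines are group medians and the dashed line is the median of all genes tested, 0.044. All nuclear and mitochondrial subunits lie above 0, and the paralogs lie on both sides of it.

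Genes were assigned to complexes by symbol. Complex I, which takes electrons from NADH, had the most genes in the set, 34 nuclear subunits of which 33 were tested. Of these 33, 1 passed (*ND-AGGG*), against 1.24% of all genes tested that were higher. At an unadjusted p under 0.05, 25 of 33 were higher, against 11.0% of all genes tested. Without overlap between genotypes 17 of 33 were higher, against 13.6% of all genes tested, and the median log2 fold change was 0.86. The summed level was 1303 ± 120 CPM in GMR>Rh-1G69D and 764 ± 259 CPM in control libraries (SD, n = 3 each). *ND-MLRQ*, assigned here by its symbol alone, had 53.5, 61.8 and 95.5 CPM in GMR>Rh-1G69D libraries, against 35.4, 18.0 and 41.3 CPM in control libraries. Its groups did not overlap, and its log2 fold change was 1.15 ± 0.32 (adjusted p = 0.0562 in edgeR). *ND-23*, which carries iron-sulfur clusters on the path to ubiquinone, had 26.5, 25.7 and 23.9 CPM in GMR>Rh-1G69D libraries, against 10.6, 13.0 and 15.1 CPM in control libraries. The GMR>Rh-1G69D libraries were close together and all above the controls, with a log2 fold change of 0.97 ± 0.26 (adjusted p = 0.0538 in edgeR). *ND-75*, the largest iron-sulfur subunit, had a log2 fold change of 0.61 ± 0.31 (adjusted p = 0.246), and *ND-42*, an accessory subunit, had 0.67 ± 0.28 (adjusted p = 0.176). For both, control replicate 3 overlapped the GMR>Rh-1G69D libraries.

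The 4 subunits of complex II, succinate dehydrogenase, also belong to the tricarboxylic acid cycle. None passed the test, and 2 of 4 were higher at an unadjusted p under 0.05, against 11.0% of all genes tested. Without overlap between genotypes 2 of 4 were higher, against 13.6% of all genes tested, and the median log2 fold change was 0.67. *SdhA*, the flavoprotein that oxidizes succinate, had 102, 79.3 and 99.3 CPM in GMR>Rh-1G69D libraries, against 55.4, 59.4 and 88.7 CPM in control libraries. Control replicate 3 lay within the range of the GMR>Rh-1G69D libraries, and the log2 fold change was 0.46 ± 0.23 (adjusted p = 0.234 in edgeR). *SdhB*, the iron-sulfur subunit, had 0.55 ± 0.27 (adjusted p = 0.244), and the membrane anchors *SdhC* and *SdhD* had 0.80 ± 0.33 (adjusted p = 0.167) and 1.03 ± 0.36 (adjusted p = 0.117).

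Complex III passes electrons from ubiquinol to cytochrome c, and 7 of its 8 nuclear subunits were tested. None passed, and 4 of 7 were higher at an unadjusted p under 0.05, against 11.0% of all genes tested. Without overlap between genotypes 3 of 7 were higher, against 13.6% of all genes tested, and the median log2 fold change was 0.61. *UQCR-Q*, a small subunit, had 46.5, 77.2 and 47.9 CPM in GMR>Rh-1G69D libraries, against 24.3, 17.0 and 38.8 CPM in control libraries. The groups did not overlap and the log2 fold change was 1.10 ± 0.32 (adjusted p = 0.0658 in edgeR). *Cyt-c1*, the cytochrome c1 subunit, had 0.34 ± 0.22 (adjusted p = 0.356), and *RFeSP*, the Rieske iron-sulfur protein, had 0.45 ± 0.31 (adjusted p = 0.395). *UQCR-C1*, a core protein, had 0.45 ± 0.28 (adjusted p = 0.352), *UQCR-11* had 0.61 ± 0.24 (adjusted p = 0.157) and *UQCR-6.4* had 1.09 ± 0.43 (adjusted p = 0.152).

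All 9 nuclear subunits assigned to complex IV by symbol were tested, and *COX8* passed. At an unadjusted p under 0.05, 8 of 9 were higher, against 11.0% of all genes tested. Without overlap between genotypes 5 of 9 were higher, against 13.6% of all genes tested, and the median log2 fold change was 0.88. *levy*, which encodes subunit VIa, had 209, 273 and 126 CPM in GMR>Rh-1G69D libraries, against 66.0, 91.8 and 135 CPM in control libraries. GMR>Rh-1G69D replicate 3 was below control replicate 3, and the log2 fold change was 1.05 ± 0.30 (adjusted p = 0.0630 in edgeR). *COX4*, in mammals the largest nuclear subunit of the enzyme, had 81.7, 83.2 and 79.7 CPM in GMR>Rh-1G69D libraries, against 25.4, 47.3 and 55.8 CPM in control libraries. The groups did not overlap, and the log2 fold change was 0.93 ± 0.27 (adjusted p = 0.0654 in edgeR). *COX5A* had 0.88 ± 0.35 (adjusted p = 0.159) and *cype*, which encodes subunit VIc, had 0.69 ± 0.32 (adjusted p = 0.216). Without control replicate 3 all 9 passed in edgeR, with a median of 1.31, against 1305 of 12206 genes higher (10.7%) in that fit. Over all fits that left out a library or a same-numbered pair the complex IV median lay between 0.58 and 1.41.

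Complex V had 11 nuclear subunits, of which *ATPsynE* and *ATPsynB* passed, against 1.24% of all genes tested that were higher. At an unadjusted p under 0.05, 9 of 11 were higher, against 11.0% of all genes tested. Without overlap between genotypes 9 of 11 were higher, against 13.6% of all genes tested, and the median log2 fold change was 0.86. *ATPsynCF6*, coupling factor 6 of the stalk, had 110, 127 and 87.8 CPM in GMR>Rh-1G69D libraries, against 33.5, 60.9 and 69.3 CPM in control libraries. Its groups did not overlap and its log2 fold change was 0.99 ± 0.27 (adjusted p = 0.0521 in edgeR). *ATPsyngamma*, the turning shaft, had 0.86 ± 0.23 (adjusted p = 0.0547), and *ATPsynO*, which joins stalk and head, had 0.86 ± 0.29 (adjusted p = 0.107). *ATPsynbeta*, the catalytic subunit, had 1146, 888 and 1106 CPM in GMR>Rh-1G69D libraries, against 454, 674 and 1069 CPM in control libraries. Control replicate 3 overlapped the GMR>Rh-1G69D libraries, and the log2 fold change was 0.52 ± 0.29 (adjusted p = 0.299 in edgeR). Without control replicate 3 all 11 passed, with a median of 1.13, against 1305 of 12206 genes higher (10.7%) in that fit. The complex V median was 0.56 without both libraries numbered 2.

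**Figure D3:**
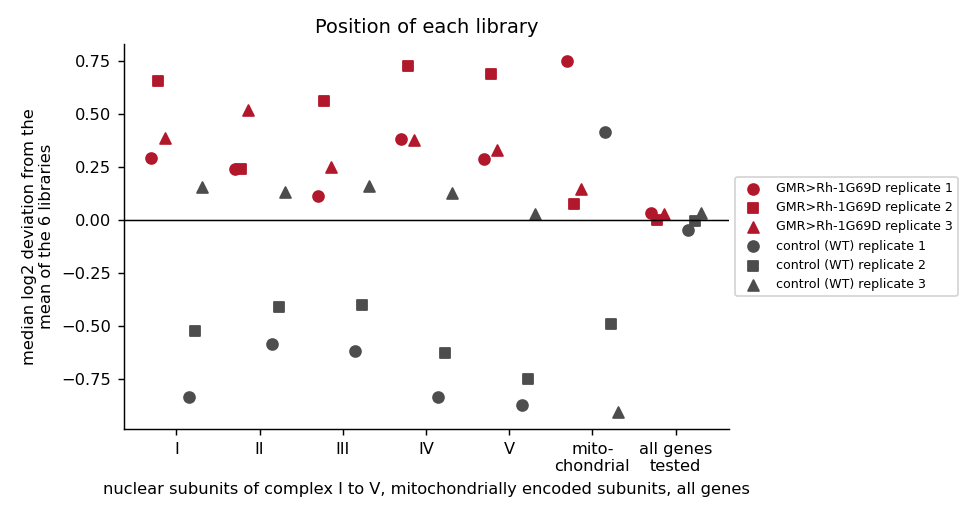
Median log2 deviation of each library from the mean of the 6 libraries (vertical axis), for nuclear subunits of each complex, mitochondrially encoded subunits and all genes tested. GMR>Rh-1G69D libraries are red and controls grey, with a symbol for each replicate number. Control replicate 3 lies above the other controls in complexes I to V and below them in the mitochondrial genes, while all libraries lie near 0 over all genes.

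The levels of the complexes differed per transcript length. The median subunit had 140 FPKM in complex V in GMR>Rh-1G69D libraries, and 72.3 FPKM in control libraries. It had 114 FPKM in complex IV in GMR>Rh-1G69D libraries and 55.8 FPKM in control libraries. Complexes I, II and III were lower, with medians of 37.0, 28.4 and 40.1 FPKM in GMR>Rh-1G69D libraries and 19.0, 16.5 and 25.4 FPKM in control libraries. The highest nuclear subunit was *ATPsynC*, the proton-carrying ring of ATP synthase, with 525 ± 37.5 FPKM in GMR>Rh-1G69D and 335 ± 95.9 FPKM in control libraries (SD, n = 3 each). *ATPsynbeta* followed with 452 ± 56.1 FPKM in GMR>Rh-1G69D and 299 ± 128 FPKM in control libraries, and the ranges of mean ± SD of these neighbours overlapped in both genotypes.

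The 13 mitochondrially encoded subunits all had a log2 fold change above 0, with a median of 0.64 and a range of 0.16 for *mt:ATPase6* to 0.99 for *mt:ND3*. None passed the test, and none was without overlap between genotypes. At an unadjusted p under 0.05, 2 of 13 were higher, *mt:ND1* of complex I and *mt:CoII* of complex IV, against 11.0% of all genes tested. The directions of *mt:ATPase6* and *mt:ND5* did not hold, since both were -0.041 with the correction for gene length. The median was 0.33 with that correction, 0.25 without GMR>Rh-1G69D replicate 1, 0.37 without control replicate 3 and 1.02 without control replicate 1.

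*mt:CoI*, the catalytic subunit of complex IV, had 4716, 3117 and 3411 CPM in GMR>Rh-1G69D libraries, against 4016, 2234 and 1660 CPM in control libraries. Control replicate 1 was above GMR>Rh-1G69D replicates 2 and 3, and the log2 fold change was 0.51 ± 0.35 (adjusted p = 0.395 in edgeR). *mt:CoIII*, another core subunit of complex IV, had 1763, 1628 and 1603 CPM in GMR>Rh-1G69D libraries, against 2324, 859 and 995 CPM in control libraries. Here control replicate 1 was the highest of all 6 libraries, and the log2 fold change was 0.26 ± 0.34 (adjusted p = 0.675). *mt:Cyt-b*, the only mitochondrial gene of complex III, had 1322, 984 and 1163 CPM in GMR>Rh-1G69D libraries, against 1464, 608 and 659 CPM in control libraries. Control replicate 1 was again the highest library, and the log2 fold change was 0.35 ± 0.32 (adjusted p = 0.532). *mt:CoII* had 439, 412 and 358 CPM in GMR>Rh-1G69D libraries, against 385, 168 and 184 CPM in control libraries. Only control replicate 1 overlapped, and the log2 fold change was 0.71 ± 0.28 (adjusted p = 0.154 with all libraries in edgeR, and 0.0102 without control replicate 1).

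Of the 7 mitochondrial subunits of complex I, *mt:ND1* had 727, 540 and 466 CPM in GMR>Rh-1G69D libraries, against 500, 315 and 229 CPM in control libraries. Control replicate 1 lay within the GMR>Rh-1G69D range, and the log2 fold change was 0.73 ± 0.28 (adjusted p = 0.141 in edgeR). *mt:ND2*, *mt:ND4* and *mt:ND6* had log2 fold changes of 0.64 ± 0.33, 0.61 ± 0.34 and 0.67 ± 0.39, with adjusted p of 0.255, 0.301 and 0.315. *mt:ND5* had 0.22 ± 0.38 (adjusted p = 0.759). The short genes *mt:ND3* and *mt:ND4L* were the most variable, at 0.99 ± 0.52 (adjusted p = 0.265) and 0.85 ± 0.56 (adjusted p = 0.372). *mt:ND4L* held only 3.48 to 7.60 CPM in GMR>Rh-1G69D libraries and 1.94 to 4.33 CPM in control libraries. In complex V, *mt:ATPase8* had 0.78 ± 0.48 (adjusted p = 0.334) and *mt:ATPase6* had 0.16 ± 0.37 (adjusted p = 0.822).

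**Figure D4:**
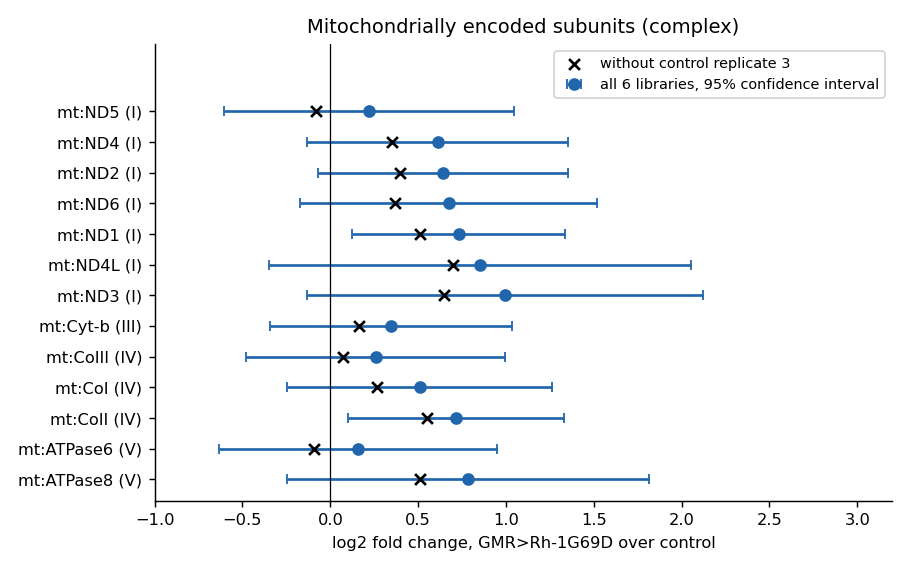
Log2 fold change of GMR>Rh-1G69D over control (horizontal axis) for each mitochondrially encoded subunit, with its complex in brackets. Points and bars are the estimate and 95% confidence interval from edgeR with all 6 libraries, and crosses are the estimate without control replicate 3. The intervals of *mt:ND1* and *mt:CoII* lie above 0 and those of the other 11 genes span it.

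Nuclear and mitochondrial genes ordered the libraries differently. The summed mitochondrial subunits had 12061, 8397 and 9144 CPM in GMR>Rh-1G69D libraries, against 11789, 5546 and 4772 CPM in control libraries. GMR>Rh-1G69D replicate 1 was the highest of its genotype for 13 of 13 mitochondrial genes, and control replicate 1 was the highest control for 12 of 13, all but *mt:ND3*. Control replicate 1 was the lowest control for 44 of 64 nuclear subunits. The ratio of summed mitochondrial to summed nuclear subunits was 2.19, 1.34 and 1.64 in GMR>Rh-1G69D libraries, against 4.44, 1.79 and 0.965 in control libraries. The control ratios enclosed those of GMR>Rh-1G69D, so the ratio did not separate the genotypes. The mitochondrial ribosomal RNAs moved with the mitochondrial subunits, with summed levels of 24234, 18356 and 20003 CPM in GMR>Rh-1G69D libraries and 30416, 11179 and 11680 CPM in control libraries. These libraries came from isolated nuclei, and the amount of mitochondrial RNA carried along with the nuclei was not tested. Within the mitochondrial subunits, complex IV took 57.4, 61.4 and 58.8% of the level in GMR>Rh-1G69D libraries and 57.0, 58.8 and 59.5% in control libraries, so its share varied little.

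**Figure D5:**
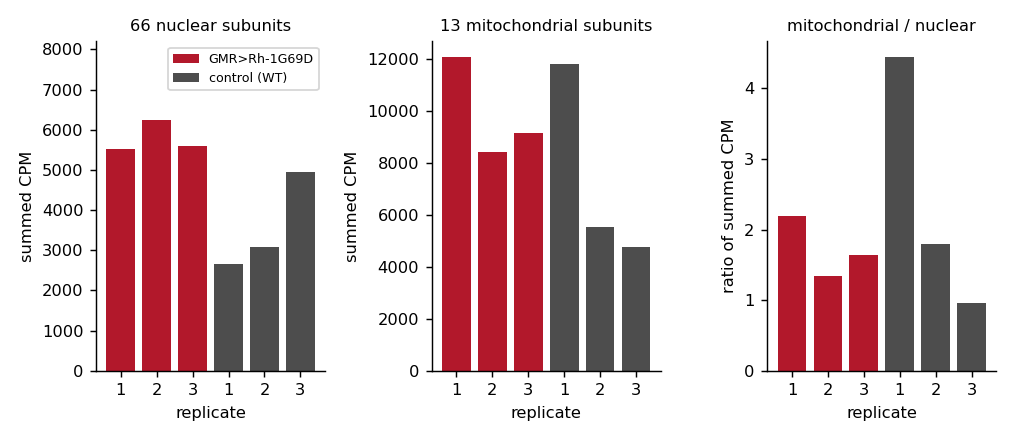
Summed CPM of the 66 nuclear subunits (left), summed CPM of the 13 mitochondrial subunits (middle) and their ratio (right), in each GMR>Rh-1G69D (red) and control library (grey) by replicate number. The nuclear sums do not overlap between genotypes, at 5510 to 6251 against 2654 to 4944 CPM, while the mitochondrial sums and the ratios overlap.

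Of the 16 paralogs 7 were tested, with a median log2 fold change of -0.077. None passed in edgeR, and 1 was lower at an unadjusted p under 0.05. *ND-51L2*, a paralog of the flavoprotein gene *ND-51* on chromosome 2R, had 0.456, 1.31 and 1.20 CPM in GMR>Rh-1G69D libraries, against 2.95, 5.93 and 2.90 CPM in control libraries. It was the lowest of the set, with no overlap between genotypes and a log2 fold change of -1.99 ± 0.67 (adjusted p = 0.106 in edgeR and 0.0190 in DESeq2). *ND-49L* was the highest paralog at 0.89 ± 0.54 (adjusted p = 0.340), and *UQCR-11L* was the most abundant, with 10.2 to 15.5 CPM in GMR>Rh-1G69D libraries and 9.88 to 15.4 CPM in control libraries. The other 9 paralogs and 2 subunits had too few counts to test. Of these 11 genes, 5 had no count in any library, *ND-MNLL*, *UQCR-14*, *COX5BL*, *ATPsynGL* and *UQCR-14L*, where the limit that 0 counts allow is 3 counts, or 0.0907 to 0.153 CPM per library. The exons of *ND-MNLL*, *UQCR-14* and *COX5BL* are wholly overlapped by exons of another annotated gene, so a 0 there does not show that the gene was silent. *COX8*, *ATPsynE*, *ATPsynB*, *ND-AGGG* and *ND-51L2* have no such overlap, and the 31 tested nuclear subunits with none had a median log2 fold change of 0.84, with 4 of 31 passing.

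Other components of the pathway were read from a list of 12 genes in the table, 9 of which were tested. None was higher and 1 was lower past the threshold in edgeR, against 1.24% higher and 3.72% lower of all genes tested. At an unadjusted p under 0.05, 4 of 9 were higher, against 11.0% of all genes tested, and the median log2 fold change was 0.63. In the fit without control replicate 3, 6 were higher and 1 was lower, against 1305 higher and 1199 lower of 12206 genes. *Ant2*, which encodes an ADP/ATP carrier of the inner membrane, had 5.02, 6.88 and 9.44 CPM in GMR>Rh-1G69D libraries, against 14.1, 23.1 and 16.0 CPM in control libraries. Every GMR>Rh-1G69D library was below every control, and *Ant2* fell by 1.32 on the log2 scale (SE 0.35, adjusted p = 0.0490). That call was lost on leaving out any single library except control replicate 3, with adjusted p of 0.0831 to 0.206 in edgeR. With all 6 libraries it was also lost with limma on FPKM (adjusted p = 0.0879 and 0.0881). The same held in edgeR with library sizes without ribosomal and mitochondrial genes (adjusted p = 0.0515). The other fits of all 6 libraries kept the call. *sesB*, the neighbouring and more abundant carrier gene, had 753, 632 and 766 CPM in GMR>Rh-1G69D libraries, against 363, 418 and 609 CPM in control libraries. Its groups did not overlap either, and its log2 fold change was 0.63 ± 0.23 (adjusted p = 0.128 in edgeR). The carriers are close relatives, and how reads that fit both were counted is not stated. *Cyt-c-p*, the main cytochrome c gene, had 51.8, 67.6 and 66.4 CPM in GMR>Rh-1G69D libraries, against 18.6, 14.8 and 44.2 CPM in control libraries. Its groups did not overlap, and its log2 fold change was 1.26 ± 0.35 (adjusted p = 0.0625). *blw* had a log2 fold change of 0.43 ± 0.24 (adjusted p = 0.303).

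Short nuclear genes of other machines had medians near those of the nuclear subunits. For mitochondrial ribosomal protein genes the median was 0.70 on the log2 scale with 1 of 72 higher, and for cytosolic ribosomal protein genes 0.87 with 11 of 87 higher. For proteasome genes it was 0.64 with none of 37 higher (23 at an unadjusted p under 0.05) and 2 lower. Over all genes tested 1.24% were higher, 3.72% were lower, and 11.0% were higher at an unadjusted p under 0.05. Without control replicate 3 the counts of these lists were 33, 81 and 30 higher, against 1305 of 12206 genes (10.7%) in that fit. Whether the nuclear subunits differ from these lists was not tested.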

How the data were processed

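Alignment by the authors used STAR 2.6.1d and the dm6 genome, and featureCounts of Subread 1.6.3 gave the raw counts per gene that were deposited. Tools and build are per the labels and methods, and the strand setting of the counting is not given in the sources used here. The deposited normalized signal is the counts divided by 1 size factor per library, and the deposited FPKM are counts per gene length and library total, both made by the authors. Genes were matched by symbol to the reference annotation, 95 of 95.

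Counts of all genes were fitted with edgeR 4.0.16 under R 4.3.3 (filterByExpr, TMM, quasi-likelihood F test, genotype only), with Benjamini-Hochberg adjustment over 11818 genes and a threshold of 0.05. CPM are scaled by the TMM library sizes. The standard error is the log2 fold change over the square root of F. Alternatives were DESeq2 1.42.0, limma 3.58.1 on log2 of normalized counts (pseudocount 1) and of FPKM (pseudocounts 1 and 0.1), RLE normalization, other filters (none, or 10 counts in every library), a replicate block, a gene length correction (a lowess of fold change on length, span 0.5) and both together, library sizes without ribosomal and mitochondrial genes, robust dispersion, and leaving out each library and each same-numbered pair. The test was checked on simulated data.

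The genes and lists were chosen with earlier results of these data known. Genes named with full statistics are the 3 nuclear genes of smallest p in each complex, all mitochondrial genes, a list of core subunits and the highest and lowest fold change. Library totals were 21773452 to 30884519 counts, and floors cover counting error only. An exact permutation test of 3 against 3 libraries cannot go below p = 0.1, so none was used.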

Additional observations from a re-analysis of the deposited data

How the results depend on the processing

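The 4 genes higher became 19 with DESeq2, 9 without a filter, 13 with at least 10 counts in every library, 12 with limma on normalized counts, 8 with limma on FPKM (pseudocount 1) and 9 with robust dispersion, all of them nuclear. Calls over all genes, in either direction, went from 586 to 1437, 731, 761, 726, 403 and 677 in these fits, in the same order. The genes fitted were 15522, 15522, 10234, 11818, 11818 and 11818. These calls include genes that were lower, so they give no share of genes higher. The count stayed at 4 with RLE normalization and with library sizes without ribosomal and mitochondrial genes. It was 3 with the gene length correction and 6 with limma on FPKM (pseudocount 0.1). Calls over all genes in either direction were 573, 567, 543 and 357 in these fits, in the same order. No gene of the set was lower, except 1 with DESeq2. No pairing of same-numbered libraries is stated. Their deviations from the genotype mean correlated at -0.002, 0.074 and 0.162, against -0.12 to 0.036 for libraries of different number. With 3 libraries per genotype these correlations cannot decide whether libraries were paired. With the replicate block the count of the set higher was 10, of which 9 nuclear and *mt:ND1*, and with the gene length correction as well it was 4, all nuclear. Calls over all genes were 734 and 566 in these fits. Leaving out libraries or pairs gave counts of 0 to 54 of the set higher, all and nuclear alike, and 0 lower, with 83 to 2504 calls over all genes. The complex IV median (0.88) ranged over 0.58 to 1.41 in those fits. Among the 40 named genes, signs reversed for *mt:ATPase6* and *mt:ND5* only, at -0.041 each with the gene length correction, and over ranges of -0.15 to 0.90 and -0.079 to 0.87 on leaving out libraries. Signs also varied for the paralogs *ATPsynbetaL*, *ATPsynepsilonL*, *COX4L*, *ND-51L1* and *UQCR-11L*, none of them called. Over the 40 named genes and 21 alternatives, 732 of 840 values kept their direction and side of the threshold, 69 gained a call, 31 lost one and 8 reversed. The causes were not tested. Low counts limit the paralogs, *mt:ND4L*, *mt:ATPase8* and the nuclear subunit *ND-B8*, which had 5 to 31 counts per library.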

Other observations

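Genes for the tricarboxylic acid cycle, which supplies the electrons, had a median log2 fold change of 0.50 over 8 tested. Of these, 7 were above 0 and none was past the threshold in edgeR. At an unadjusted p under 0.05, 4 of 8 were higher, against 11.0% of all genes tested. Without control replicate 3, 6 were higher past the threshold, against 1305 of 12206 genes (10.7%) in that fit. *Acon*, the aconitase, had 257, 210 and 209 CPM in GMR>Rh-1G69D libraries, against 142, 159 and 157 CPM in control libraries, a log2 fold change of 0.56 ± 0.18 (adjusted p = 0.0875). *kdn*, the citrate synthase, had 89.3, 95.6 and 94.8 CPM in GMR>Rh-1G69D libraries, against 79.6, 88.2 and 97.7 CPM in control libraries, and the groups overlapped. Of 13 tested genes for mitochondrial gene expression none passed in edgeR (2 higher and 1 lower at an unadjusted p under 0.05, and 1 higher past the threshold without control replicate 3), with a median of 0.34, and *TFAM*, which packages mitochondrial DNA, had 0.53 ± 0.28 (adjusted p = 0.273). Of 8 transcriptional regulators of these pathways none passed (2 lower at an unadjusted p under 0.05), with a median of -0.27. *srl*, the fly PGC-1 gene, had 214, 197 and 209 CPM in GMR>Rh-1G69D libraries, against 202, 195 and 166 CPM in control libraries. *ewg*, the fly relative of NRF-1, had 173, 140 and 173 CPM in GMR>Rh-1G69D libraries, against 287, 269 and 198 CPM in control libraries, with no overlap and a log2 fold change of -0.63 ± 0.20 (adjusted p = 0.0872). In the fit without control replicate 3, 3 of the regulators were lower past the threshold, *ewg* (adjusted p = 0.00962), *Myc* (adjusted p = 0.00965) and *foxo* (adjusted p = 0.0323). In that fit 1199 of 12206 genes were lower.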
